A study of Chlorocebus aethiops with 36 samples.

Results

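The liver makes most of the complement proteins and clotting factors of plasma, and 41 genes of these cascades were followed here in liver biopsies of African green monkeys: 19 of complement and 22 of coagulation. Each gene was read from a single probe set, the one with the highest mean over all 36 arrays among those annotated to that symbol only. Of the 41, 39 were tested (18 complement and 21 coagulation genes) among 13634 genes in all. VTN, which encodes vitronectin, had no probe set of its own, since both of its probe sets are shared with another gene. C9, the pore-forming last component of complement, had a mean of 4.38, below the filter at 4.459.

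The biopsies came from 12 male animals of the species Chlorocebus aethiops, hybridised to a human array (HG-U133 Plus 2.0). Anti-miR-33 went to 6 animals and a control anti-miR to the other 6; anti-miR-33 is an oligonucleotide that binds and blocks the microRNA miR-33. Either compound was given under the skin at 5 mg/kg, at first more often and later weekly. Every animal was sampled at week -5 (baseline, untreated, on chow), at week 4 (treated, still on chow) and at week 12 (treated), when it had eaten a diet high in carbohydrate and moderate in cholesterol for 8 weeks. The arm of a baseline array is that of the animal's later labels. No group was left uninjected after baseline, and both arms received the diet, so in the changes over time the course of injections, repeated biopsy, age and, from week 4 to week 12, diet cannot be told apart. The 3 biopsies of an animal are paired by its identifier. A human probe that mismatches the monkey transcript lowers its signal on all arrays, and for that reason each probe set was set against itself across groups, and no level was read as higher or lower expression of one gene than of another.

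Complement is a cascade of plasma proteases and pore-forming proteins. The classical route starts when C1s, activated by C1r, cleaves C4 and C2. The lectin route starts when mannose-binding lectin (MBL2) and its proteases MASP1 and MASP2 meet sugars on a surface. Both lead to cleavage of C3 and assembly of C5 to C9 into a membrane pore. Coagulation likewise runs through proteases that activate one another until thrombin (from F2) turns fibrinogen into fibrin, and it is held back by antithrombin, the protein C system and, once fibrin has formed, by plasmin. Hepatocytes secrete nearly all of these factors, and several of them are acute phase proteins whose transcripts respond to interleukin 6.

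Each marker list was first read in the arrays as a check of the tissue. The mean of 18 hepatocyte markers lay between 12.00 and 12.35 in 35 of the arrays and at 11.70 in the week 12 array of control animal 5, whose highest value (13.8) was also below that of every other array. The week 4 array of anti-miR-33 animal 5 was next, with a highest value of 14.28. Signal of the 3′ over the 5′ probe sets of the control transcripts GAPDH and ACTB, which is read as a sign of RNA quality, moved with time: the log2 difference was 2.57 ± 0.43 (SD, n = 12 animals) at week -5, 1.94 ± 0.41 at week 4 and 1.83 ± 0.16 at week 12, and it fell in 11 of 12 animals from week -5 to week 12. The identifier numbers of the arrays form 2 runs, 1 with all week -5 and week 12 arrays and another with the 12 week 4 arrays, so week 4 and its run cannot be told apart. The week 4 array of control animal 1 carries a diet label that goes against its time. Endothelial markers fell as well: 11 of 14 were lower at week 4 and 1 (CLEC4M) was higher, and their mean went from 6.98 (range 6.64 to 7.27) at week -5 to 6.43 (6.18 to 6.86) at week 4 and 6.32 (6.13 to 6.59) at week 12. Among all tested genes, 20.6% were called lower and 15.1% higher at week 4. In bulk tissue, fewer cells of a type and less RNA per cell cannot be told apart.

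Over time, both cascades changed in a mixed way, with 12 members called higher and 3 lower from week -5 to week 4 and 13 higher and 4 lower from week -5 to week 12. The 3′ minus 5′ value moved over the same intervals, and with it as a covariate in the fit these counts were 4 higher and 8 lower, and 1 higher and 2 lower. From week -5 to week 4, 7 of 18 complement members rose (C1S, C2, MASP2, C5, C8G, CFI and C4BPA) and 2 fell (C1R and C7), and 5 of 21 coagulation members rose (F5, F13B, F11, FGG and PROZ) and 1 fell (KNG1). Over all 13634 tested genes, 15.1% rose and 20.6% fell in the same comparison. From week 4 to week 12, no complement member rose and 3 fell (C2, MASP2 and C8G), whereas 5 coagulation members rose (F5, F9, KNG1, PLG and CPB2) and 6 fell (F10, F11, F12, PROC, PROZ and SERPINF2), against 13.7% and 13.9% of all genes. From week -5 to week 12, 7 complement members rose (C1S, MBL2, MASP1, C5, C6, CFI and C4BPA) and 2 fell (C1R and C7), and 6 coagulation members rose (F5, F13B, F9, FGG, PLG and CPB2) and 2 fell (F12 and PROC), against 10.9% and 16.5% of all genes. The 14 members that passed in none of these changes include C3, CFB, F2, F7, FGA, FGB and SERPINC1. Calls are at an adjusted p of 0.05 from limma, with Benjamini-Hochberg adjustment over all tested genes and both arms averaged. No member had values at one time that lay wholly outside those at another, beside 0.777%, 0.323% and 0.601% of all tested genes in the 3 intervals in the order above.

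**Figure D1:**
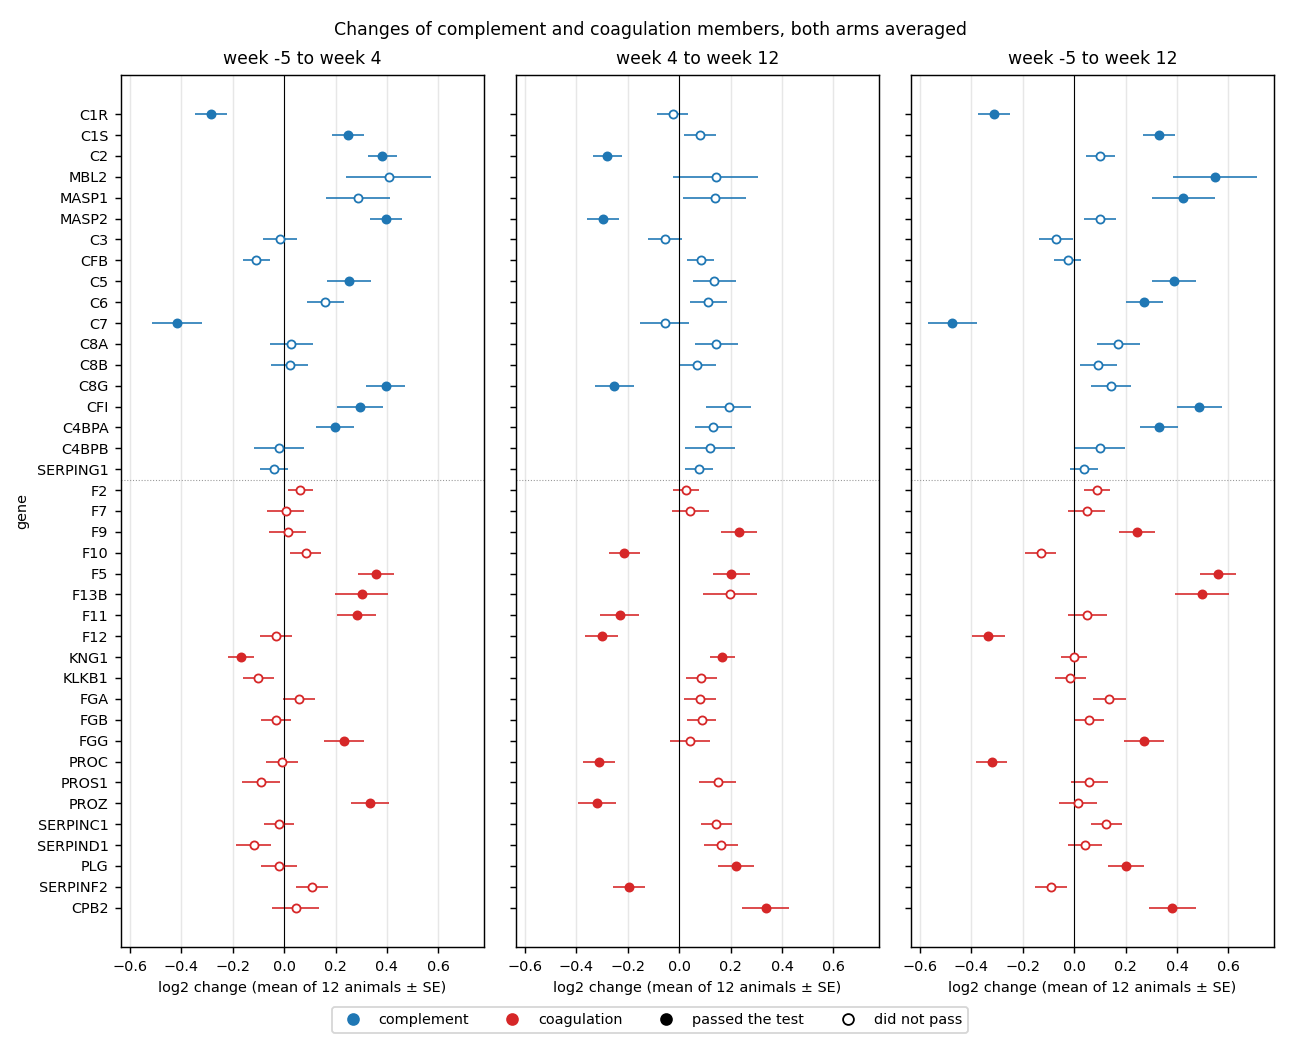
Change of each of the 39 tested members between the times, as the log2 change averaged over both arms with its standard error from the fit (n = 12 animals), complement in blue and coagulation in red. Filled points passed the test; the largest rise is that of F5 from week -5 to week 12 (0.56) and the largest fall that of C7 (-0.47).

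Read as classes, complement had the higher median change from baseline. The median change of the complement members was 0.18 from week -5 to week 4, 0.08 from week 4 to week 12 and 0.12 from week -5 to week 12, and that of the coagulation members was 0.01, 0.09 and 0.06. Over all tested genes the medians were -0.01, 0.01 and -0.01. With the 3′ minus 5′ value as a covariate, the medians from week -5 were -0.03 (week 4) and 0.02 (week 12) in complement and -0.06 and -0.08 in coagulation. In each animal, the mean over the complement members minus the mean over the coagulation members changed by 0.060 ± 0.058 (SD, n = 12) from week -5 to week 4 and was higher in 11 of 12 animals. From week 4 to week 12 it changed by -0.003 ± 0.060 and was higher in 6 of 12, and from week -5 to week 12 by 0.057 ± 0.067, higher in 10 of 12. The gap that opened at week 4 was therefore about as large as its own spread between animals. By arm, its change from week -5 to week 12 was 0.049 ± 0.036 (SD, n = 6) in the control arm and 0.065 ± 0.091 in the anti-miR-33 arm. These are descriptions over chosen genes, and no test was made of them.

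**Figure D2:**
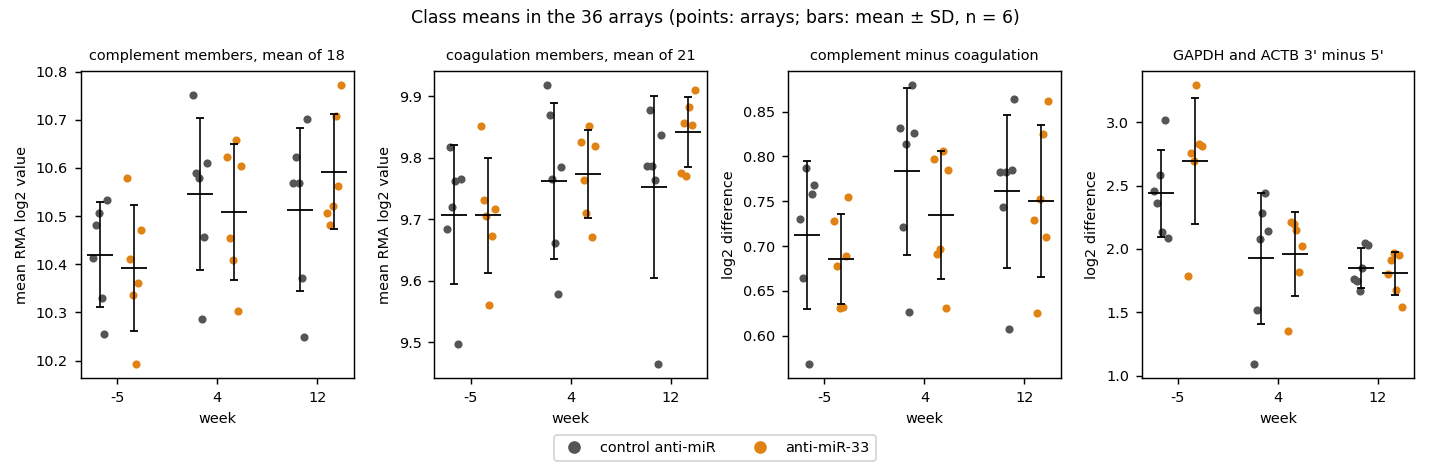
Mean log2 value of the 18 complement and 21 coagulation members, their difference, and the 3′ minus 5′ value of GAPDH and ACTB in each of the 36 arrays, by week and arm. Points are arrays and bars are the mean ± SD (n = 6); the lowest coagulation mean, 9.46, is that of control animal 5 at week 12.

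Within the classical pathway, C2 and the 2 C1 proteases went different ways. C2, the protease part of the classical and lectin C3 convertase, ran from 8.48 to 8.82 (median 8.69) at week -5, from 8.73 to 9.40 (median 9.08) at week 4 and from 8.59 to 8.97 (median 8.78) at week 12. It was high only at the middle biopsy: it rose by 0.38 ± 0.056 (SE, limma adjusted p = 2.33e-06) to week 4, in 12 of 12 animals, and fell by 0.28 ± 0.056 (adjusted p = 0.000366) to week 12, again in 12 of 12. C1S ran from 10.51 to 11.36 (median 11.12) at week -5, from 11.16 to 11.46 (median 11.32) at week 4 and from 11.19 to 11.59 (median 11.38) at week 12. Its rise of 0.25 ± 0.063 by week 4 (adjusted p = 0.00207) was kept, at 0.33 ± 0.063 (adjusted p = 0.000136) by week 12. C1R, whose product sits beside C1s in the same complex, ran the other way, from 11.49 to 11.91 (median 11.68) at week -5, from 11.14 to 11.56 (median 11.44) at week 4 and from 10.90 to 11.56 (median 11.40) at week 12. It was lower by 0.285 ± 0.062 (adjusted p = 0.00051) at week 4 and by 0.31 ± 0.062 (adjusted p = 0.000252) at week 12, in 11 of 12 animals each time. In the fit with the 3′ minus 5′ covariate the calls of C2 held and those of C1S (0.10 and 0.15, adjusted p = 0.35 and 0.293) and C1R (-0.18 and -0.19, adjusted p = 0.0853 and 0.201) to weeks 4 and 12 were lost.

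All 3 lectin pathway members rose in at least 1 comparison. MASP2, which cleaves C4 and C2, followed the same course as C2, from 10.60 to 11.12 (median 10.81) at week -5, from 10.78 to 11.42 (median 11.26) at week 4 and from 10.67 to 11.27 (median 10.93) at week 12. By its highest probe set, MASP2 rose by 0.40 ± 0.062 (adjusted p = 6.52e-06) in 12 of 12 animals and fell by 0.295 ± 0.062 (adjusted p = 0.000599) in 11 of 12. MBL2, the soluble lectin that recognises mannose, ran from 3.93 to 5.33 (median 4.67), from 4.05 to 5.69 (median 5.02) and from 3.90 to 6.03 (median 5.21) at the 3 times. Its spread between animals within a group (SD 0.521) was the widest of the members. MBL2 was 0.41 ± 0.165 higher at week 4, just short of the threshold (adjusted p = 0.0516), and rose by 0.55 ± 0.165 (adjusted p = 0.0112) from week -5 to week 12, in 10 of 12 animals. MASP1 ran from 5.33 to 6.87 (median 6.13), from 5.60 to 7.16 (median 6.43) and from 6.13 to 7.19 (median 6.53), and rose by 0.425 ± 0.123 (adjusted p = 0.00844) from week -5 to week 12, in 11 of 12 animals. MASP2 at week 12 was 0.10 ± 0.062 above week -5 (adjusted p = 0.24). The week 12 calls of MBL2 and MASP1 were lost with the 3′ minus 5′ covariate (0.24 and -0.02, adjusted p = 0.609 and 0.953), and that of MASP1 also with the mean of its probe sets (0.03, adjusted p = 0.725), while another of them fell by 0.41.

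The central components C3 and CFB did not pass in any interval. C3, on which all routes converge, stayed at the top of the scale, from 14.53 to 14.61 (median 14.56) at week -5, from 14.10 to 14.67 (median 14.59) at week 4 and from 13.67 to 14.65 (median 14.57) at week 12, beside a highest value of 15.07 for any probe set. Its change from week -5 to week 12 was -0.07 ± 0.066 (adjusted p = 0.46). The low ends at weeks 4 and 12 are 1 array each, anti-miR-33 animal 5 and control animal 5. CFB, the protease of the alternative pathway, ran from 13.56 to 13.78 (median 13.63), from 13.25 to 13.62 (median 13.59) and from 13.09 to 13.75 (median 13.66), with a change of -0.11 ± 0.052 (adjusted p = 0.0992) to week 4. Without the week 12 array of control animal 5, CFB passed as a fall to week 4 (-0.11, adjusted p = 0.0282) and as a rise from week 4 to week 12 (0.13, adjusted p = 0.0142). Whether values this close to the top of the scale understate a change was not tested.

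Among the terminal components, which build the membrane attack complex, C5 and C6 ended higher, C7 ended lower and C8G was high at week 4. C5 ran from 10.74 to 12.10 (median 11.67) at week -5, from 11.68 to 12.15 (median 11.92) at week 4 and from 11.74 to 12.23 (median 12.01) at week 12. It rose by 0.25 ± 0.084 (adjusted p = 0.0176) to week 4 and by 0.39 ± 0.084 (adjusted p = 0.000574) to week 12, the latter in 12 of 12 animals. C6 ran from 11.53 to 12.04 (median 11.85), from 11.65 to 12.27 (median 11.98) and from 11.67 to 12.54 (median 12.03), and rose by 0.27 ± 0.072 (adjusted p = 0.00409) from week -5 to week 12, also in 12 of 12. C8G, the gamma chain of C8, ran from 10.75 to 11.71 (median 11.43), from 11.23 to 12.25 (median 11.80) and from 11.12 to 11.83 (median 11.61). It rose by 0.395 ± 0.076 (adjusted p = 0.000117) to week 4 in 12 of 12 animals and fell by 0.25 ± 0.076 (adjusted p = 0.0127) to week 12 in 11 of 12. Of the alpha and beta chains of the same protein, C8A was 0.03 ± 0.084 and C8B 0.02 ± 0.072 above week -5 at week 4 (adjusted p = 0.82 and 0.839). With the 3′ minus 5′ covariate, the calls of C5 (-0.01 and 0.08, adjusted p = 0.962 and 0.689, to weeks 4 and 12) and C6 (0.06 to week 12, adjusted p = 0.754) were lost and those of C8G held.

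C7 was the member with the largest fall. It ran from 6.88 to 7.55 (median 7.29) at week -5, from 6.26 to 7.30 (median 6.90) at week 4 and from 6.21 to 7.22 (median 6.86) at week 12. The change was -0.42 ± 0.096 (adjusted p = 0.000853) to week 4 in 10 of 12 animals and -0.47 ± 0.096 (adjusted p = 0.000266) to week 12 in 12 of 12. Markers of stellate cells and fibrosis moved with it: 6 of 11 fell by week 4 and 6 of 11 by week 12, and their mean went from 8.23 (range 7.79 to 8.78) to 7.92 (7.61 to 8.44) and 7.81 (7.42 to 8.27). Among all tested genes, 20.6% fell by week 4 and 16.5% by week 12. The part of stellate cells in the fall of C7 was not tested. C9, below the filter, ran from 4.06 to 4.57 (median 4.35), from 3.88 to 4.58 (median 4.26) and from 4.22 to 4.93 (median 4.54) at the 3 times. When genes of low values were kept in the fit, C9 changed by -0.07 ± 0.082 (adjusted p = 0.527) to week 4 and rose by 0.32 ± 0.082 (adjusted p = 0.00527) from week 4 to week 12, in 10 of 12 animals.

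Of the 4 regulators of complement, the 2 that inactivate C3b and C4b together rose. CFI, the protease that cleaves them, ran from 8.89 to 10.05 (median 9.56) at week -5, from 9.55 to 10.20 (median 9.88) at week 4 and from 9.72 to 10.33 (median 10.04) at week 12. CFI rose by 0.29 ± 0.089 (adjusted p = 0.00966) to week 4 and by 0.49 ± 0.089 (adjusted p = 8.58e-05) to week 12, a 1.4-fold rise seen in 11 of 12 animals. C4BPA, the alpha chain of its cofactor C4b-binding protein, ran from 10.20 to 10.85 (median 10.53), from 10.38 to 11.05 (median 10.77) and from 10.45 to 11.24 (median 10.89), and rose by 0.20 ± 0.073 (adjusted p = 0.0321) and 0.33 ± 0.073 (adjusted p = 0.000716). None of these calls held with the 3′ minus 5′ covariate, in which CFI changed by -0.01 and 0.12 (adjusted p = 0.927 and 0.507) and C4BPA by -0.03 and 0.06 (adjusted p = 0.821 and 0.733) to weeks 4 and 12. The beta chain gene C4BPB, with 0.10 ± 0.097 at week 12 (adjusted p = 0.487), and the C1 inhibitor SERPING1, with 0.04 ± 0.054 (adjusted p = 0.644), did not pass in any interval.

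Turning to coagulation, F5 and F13B rose, and of the 4 vitamin K dependent procoagulants F9 rose, F10 fell, and F2 and F7 did not pass. F5 encodes factor V, the cofactor that speeds thrombin formation. It ran from 9.82 to 10.88 (median 10.49) at week -5, from 10.66 to 11.03 (median 10.76) at week 4 and from 10.83 to 11.16 (median 10.99) at week 12, so all but 1 of its week -5 values lay below the lowest at week 12. By its highest probe set, F5 passed upward in all 3 changes, by 0.36 ± 0.071 (adjusted p = 0.000187), 0.20 ± 0.071 (adjusted p = 0.031) and 0.56 ± 0.071 (adjusted p = 3.29e-07), and was higher at week 12 than at week -5 in 12 of 12 animals. With the mean of its probe sets, F5 instead fell to week 4 (-0.13, adjusted p = 0.0152) and did not pass to week 12 (0.04, adjusted p = 0.517), while the second probe set fell by 0.71 to week 4. F13B, the carrier subunit of the enzyme that crosslinks fibrin, ran from 6.86 to 8.12 (median 7.61), from 7.43 to 8.62 (median 7.87) and from 7.81 to 8.54 (median 8.08), and rose by 0.30 ± 0.104 (adjusted p = 0.0222) and 0.50 ± 0.104 (adjusted p = 0.000391) to weeks 4 and 12. In the covariate fit, F13B changed by -0.13 and -0.01 (adjusted p = 0.251 and 0.973) and F5 by 0.09 and 0.25 (adjusted p = 0.306 and 0.0276).

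Prothrombin and factor VII did not pass in any interval. F2 ran from 12.04 to 12.46 (median 12.26), from 12.14 to 12.49 (median 12.33) and from 11.99 to 12.58 (median 12.39), with 0.09 ± 0.050 (adjusted p = 0.191) from week -5 to week 12. F7, which starts the cascade with tissue factor, ran from 5.60 to 5.93 (median 5.76), from 5.23 to 6.19 (median 5.84) and from 5.60 to 6.06 (median 5.82), with 0.05 ± 0.072 (adjusted p = 0.664). The other two of this group moved apart between week 4 and week 12. F9, the gene of haemophilia B, ran from 7.72 to 8.33 (median 8.18), from 7.78 to 8.44 (median 8.14) and from 8.02 to 8.56 (median 8.35) and rose by 0.23 ± 0.071 (adjusted p = 0.0132). Its rise from week -5 to week 12 (0.245, adjusted p = 0.00831) was lost with the 3′ minus 5′ covariate (0.24, adjusted p = 0.169). F10, at the head of the common pathway, ran from 10.19 to 10.77 (median 10.48), from 10.38 to 10.80 (median 10.57) and from 10.10 to 10.59 (median 10.38) and fell by 0.21 ± 0.060 (adjusted p = 0.00737).

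The contact system has 4 members here, and 3 of them changed, each with its own course. F11 was high at week 4, with 7.60 to 8.56 (median 8.19) at week -5, 8.23 to 8.85 (median 8.41) at week 4 and 7.88 to 8.57 (median 8.19) at week 12, a rise of 0.28 ± 0.076 (adjusted p = 0.004) and a fall of 0.23 ± 0.076 (adjusted p = 0.0216). F12, which starts the contact route on charged surfaces, ran from 10.69 to 11.37 (median 10.99), from 10.69 to 11.21 (median 11.01) and from 10.43 to 10.99 (median 10.69). It fell late, by 0.30 ± 0.064 (adjusted p = 0.000677) from week 4 to week 12, and was below its week -5 value in 12 of 12 animals (-0.33 ± 0.064, adjusted p = 0.000154). KNG1, which encodes the kininogens, was low at week 4, with 12.50 to 12.78 (median 12.57), 12.26 to 12.63 (median 12.43) and 12.11 to 12.68 (median 12.66). Its fall of 0.17 ± 0.050 (adjusted p = 0.00883) and its rise of 0.17 ± 0.050 (adjusted p = 0.012) were equal in size. KLKB1, prekallikrein, differed by -0.10 ± 0.061 at week 4 (adjusted p = 0.203). With the 3′ minus 5′ covariate, the rise of F11 to week 4 (0.01, adjusted p = 0.957) and the fall of F12 from week -5 (-0.18, adjusted p = 0.22) were lost.

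Fibrinogen is a complex of 3 chains, and only the gamma chain gene passed in this reading. FGG ran from 12.77 to 13.55 (median 13.44) at week -5, from 13.31 to 13.85 (median 13.53) at week 4 and from 13 to 13.86 (median 13.66) at week 12, and rose by 0.23 ± 0.078 (adjusted p = 0.0189) and 0.27 ± 0.078 (adjusted p = 0.00745) to weeks 4 and 12. FGA ran from 10.06 to 10.54 (median 10.38), from 10.21 to 10.62 (median 10.37) and from 10.09 to 10.94 (median 10.47), with 0.14 ± 0.063 (adjusted p = 0.108) at week 12. FGB ran from 13.07 to 13.47 (median 13.29), from 13.03 to 13.53 (median 13.26) and from 12.91 to 13.60 (median 13.35), with 0.06 ± 0.057 (adjusted p = 0.498). FGG in the covariate fit changed by 0.03 and 0.04 (adjusted p = 0.819 and 0.865), and with the mean of all probe sets per gene FGA (0.16, adjusted p = 0.0119) and FGB (0.43, adjusted p = 0.000266) passed at week 12. That FGG differs from the other chains was not tested.

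Of the 5 anticoagulant genes, PROC and PROZ changed. PROC encodes protein C, which destroys activated factors V and VIII, and ran from 8.14 to 8.83 (median 8.34) at week -5, from 8.20 to 8.54 (median 8.39) at week 4 and from 7.79 to 8.28 (median 8.08) at week 12. It fell by 0.31 ± 0.062 (adjusted p = 0.000382) from week 4 to week 12 in 12 of 12 animals and stood 0.32 ± 0.062 below week -5 (adjusted p = 0.000175), also in 12 of 12, though this last call was lost with the 3′ minus 5′ covariate (-0.16, adjusted p = 0.252). PROZ, a cofactor in the inhibition of factor X, was high at week 4, with 6.23 to 7.02 (median 6.79), 6.74 to 7.38 (median 7.19) and 6.51 to 7.01 (median 6.76). PROZ rose by 0.33 ± 0.075 (adjusted p = 0.000693) and fell by 0.32 ± 0.075 (adjusted p = 0.00179). SERPINC1, antithrombin, ran from 13.36 to 13.85 (median 13.62), from 13.41 to 13.81 (median 13.62) and from 13.20 to 13.87 (median 13.80), with 0.145 ± 0.059 from week 4 to week 12 (adjusted p = 0.0612). Without the week 12 array of control animal 5 this was a rise of 0.19 (adjusted p = 0.00677). PROS1, the cofactor of protein C, and SERPIND1, heparin cofactor II, did not pass in any interval (week 4 to week 12, 0.149 ± 0.073 and 0.16 ± 0.067, adjusted p = 0.126 and 0.0675).

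All 3 members of the fibrinolytic system changed after week 4. CPB2, the carboxypeptidase that protects fibrin from plasmin, ran from 7.17 to 8.41 (median 7.71) at week -5, from 7.22 to 8.09 (median 7.73) at week 4 and from 7.64 to 8.36 (median 8.13) at week 12, and rose by 0.34 ± 0.092 (adjusted p = 0.00639) in 12 of 12 animals. PLG, plasminogen, ran from 11.30 to 11.93 (median 11.58), from 11.29 to 11.94 (median 11.55) and from 11.25 to 11.98 (median 11.87) and rose by 0.22 ± 0.070 (adjusted p = 0.0167) in 10 of 12. With the mean of its probe sets this call was lost (0.02, adjusted p = 0.736), while another of them fell by 0.27. PLG has close relatives in the genome, and its value may hold signal from them. From week -5 to week 12, CPB2 rose by 0.38 (adjusted p = 0.00183) and PLG by 0.20 (adjusted p = 0.0285), and with the 3′ minus 5′ covariate neither passed (-0.07 and -0.13, adjusted p = 0.649 and 0.204). SERPINF2, the plasmin inhibitor, ran from 6.11 to 6.58 (median 6.32), from 6.19 to 6.76 (median 6.41) and from 5.97 to 6.57 (median 6.21) and fell by 0.20 ± 0.062 (adjusted p = 0.0171) in 10 of 12.

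**Figure D3:**
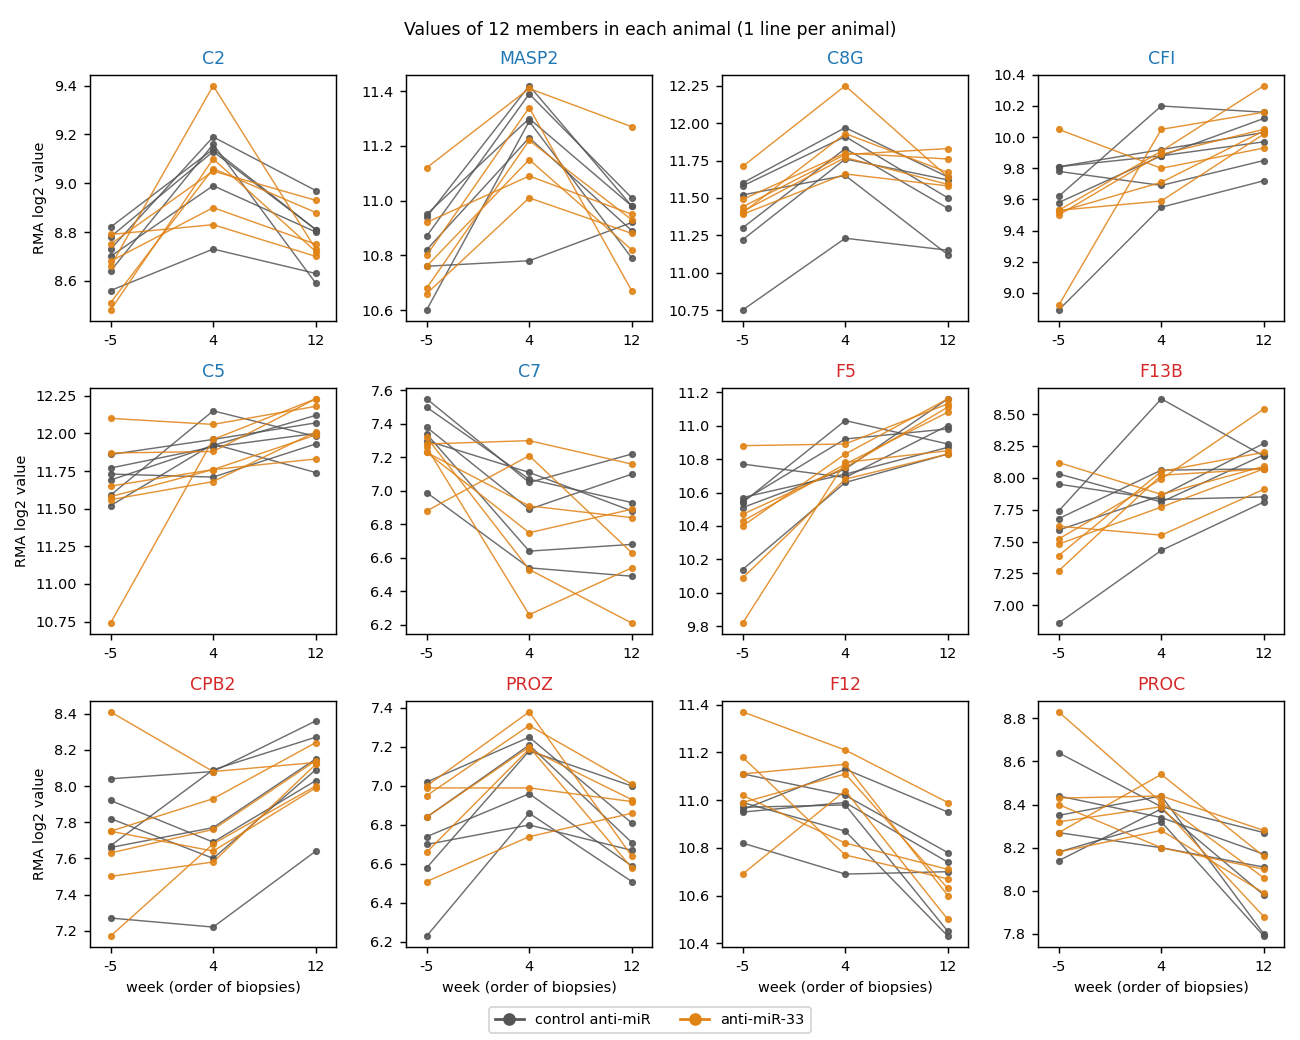
RMA log2 values of 12 members in each animal at weeks -5, 4 and 12 (the biopsies are spaced evenly, 1 line per animal, gray control and orange anti-miR-33; blue titles complement, red titles coagulation). C2, MASP2, C8G and PROZ peak at week 4, F12 and PROC are low at week 12, and the lines of both arms overlap.

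Across the cascades the courses fell into a few shapes. A peak at week 4, a rise followed by a fall, was seen in 5 members (C2, MASP2, C8G, F11 and PROZ), and none of these passed from week -5 to week 12. A rise by week 4 that remained at week 12 was seen in 7 (C1S, C5, CFI, C4BPA, F13B, FGG and F5). Members that passed upward from week -5 to week 12 but not to week 4 numbered 6 (C6, MASP1, MBL2, F9, PLG and CPB2). C1R and C7 fell and stayed low, F12 and PROC fell after week 4, F10 and SERPINF2 fell from week 4 alone, and KNG1 dipped at week 4. The 5 members with a peak at week 4, KNG1, F10 and SERPINF2 rest on a contrast with the week 4 arrays, as do all changes to or from week 4; these arrays are numbered apart from the others, and the part of that run was not tested.

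Most of the rises from week -5 were lost when the 3′ minus 5′ value entered the fit as a covariate, whereas the changes from week 4 to week 12 were not. The value itself changed by a mean of -0.625 and -0.738 from week -5 to weeks 4 and 12. From week 4 to week 12 its mean change was only -0.113 ± 0.392 (SD, n = 12), so the covariate could alter that interval little. In that fit, 3 complement members rose to week 4 (C2 0.31 ± 0.071, MASP2 0.38 ± 0.082 and C8G 0.32 ± 0.099) with adjusted p of 0.00153, 0.000849 and 0.017, and 2 fell: C7 by 0.40 ± 0.127 (adjusted p = 0.0188) and C8B by 0.199 ± 0.076 (adjusted p = 0.0492). Of the coagulation members PROZ rose (0.31 ± 0.100, adjusted p = 0.0198) and 6 fell, namely CPB2, KNG1, PLG, PROS1, SERPINC1 and SERPIND1. All genes gave 9.33% higher and 15.9% lower. From week -5 to week 12, no complement member rose and C7 fell (-0.455 ± 0.137, adjusted p = 0.041), while F5 rose (0.25 ± 0.070, adjusted p = 0.0276) and F11 fell (-0.275 ± 0.077, adjusted p = 0.0266), against 0.902% and 4.72% of all genes. From week 4 to week 12 the same 14 calls were made with the covariate as without it. The covariate itself differs between week -5 and the later times, so the fit cannot divide the change of these members between time and the 3′ minus 5′ value.

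**Figure D4:**
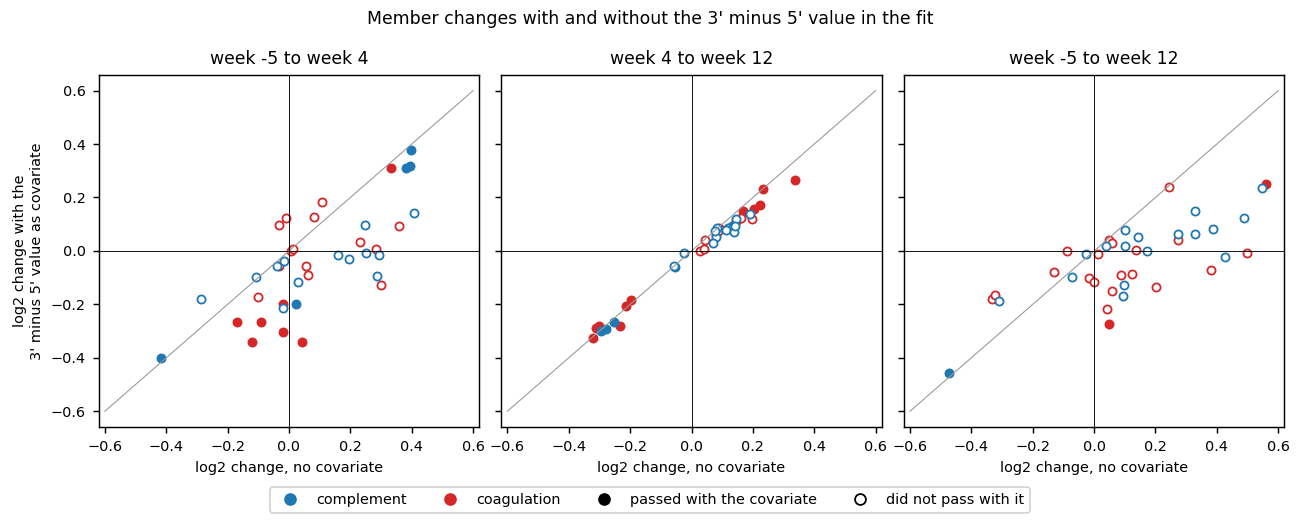
Log2 change of each of the 39 tested members with the 3′ minus 5′ value of the control probe sets as a covariate (vertical) against the change without it (horizontal), for each pair of times; the gray line marks equal values. Filled points passed with the covariate: 14 members from week 4 to week 12, lying along the line, and 3 members (C7, F5 and F11) from week -5 to week 12.

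Other probe sets of the same genes gave a check on the reading, and several disagreed. Of the members, 12 had further probe sets above the filter, 16 in all. When every probe set was tested on its own (22391 in all, of which 36.5% were called from week -5 to week 4, 26.3% from week 4 to week 12 and 25.9% from week -5 to week 12), 9, 6 and 7 of the 16 passed, or 56.2%, 37.5% and 43.8%. In 6, 2 and 2 of these the sign was opposite to that of the gene's highest probe set. To week 4, the highest probe sets of SERPINC1 (-0.02), PLG (-0.02) and FGB (-0.03), among these cases, hardly changed. The clearest case was F5: its second probe set (204713_s_at) went from 9.55 ± 0.19 (SD, n = 12) to 8.84 ± 0.26 and 9.15 ± 0.22, a fall of 0.71 ± 0.085 to week 4 (limma adjusted p = 6.15e-08), while 204714_s_at, used above, rose by 0.36. Both rose from week 4 to week 12, by 0.31 and 0.20. The rise of F5 from week -5 therefore holds for 1 of its probe sets.

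For other genes a second probe set moved the same way but further, or moved where the first did not. C1S was read at 7.45 ± 0.71, 8.95 ± 0.52 and 9.10 ± 0.31 by 1555229_a_at, a rise of 1.64 ± 0.189 (3.12-fold) from week -5 to week 12 (adjusted p = 6.33e-08) beside 0.33 by the highest one. SERPINC1 by 1554491_a_at went from 12.01 ± 0.43 to 12.52 ± 0.30 and 12.75 ± 0.21, a rise of 0.75 ± 0.117 (adjusted p = 1.13e-05). FGB by 216238_s_at went from 12.32 ± 0.40 to 12.73 ± 0.34 and 13.13 ± 0.37, a rise of 0.81 ± 0.132 (adjusted p = 1.86e-05), so that the statement that FGB and SERPINC1 did not pass also rests on the choice of probe set. FGA by 231671_at fell by 0.29 ± 0.073 (adjusted p = 0.0024) and then rose by 0.40 ± 0.073 (adjusted p = 0.000167). CFB by 211920_at, a dim probe set with a mean of 5.49, rose by 0.42 ± 0.079 to week 4 (adjusted p = 9.05e-05). PLG by 240033_at rose by 0.53 ± 0.077 to week 4 (adjusted p = 1.87e-06) and fell by 0.27 ± 0.077 after it (adjusted p = 0.00991), opposite to the rise above. MASP1 by 232224_at fell by 0.41 ± 0.085 from week -5 to week 12 (adjusted p = 0.000327), again opposite. For MASP2 a second probe set (207041_at) rose too, by 0.16 ± 0.060 to week 4 (adjusted p = 0.0313).

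Between the arms, which is the comparison of anti-miR-33 with the control oligonucleotide, no member passed at any time. At week -5, week 4 and week 12 alike, 0 of 39 members were called, as were 0% of all 13634 genes, and no member had arms that did not overlap, beside 0.161%, 0.0807% and 0.0733% of all genes at week -5, 4 and 12. Arm differences in the change from week -5 to week 4, from week 4 to week 12 and from week -5 to week 12 also gave 0 of 39 and 0% of all genes in limma. At an unadjusted p under 0.05, 531, 662 and 414 genes differed between the arms at the 3 times, with 0, 0 and 2 members among them, and 478, 487 and 299 genes differed in their change, with no member. By arm, C2 rose by 0.35 in the control arm and 0.41 in the anti-miR-33 arm to week 4, F5 by 0.44 and 0.68 to week 12, CFI by 0.39 and 0.58, and PROC fell by 0.32 and 0.33. A p that misses the threshold does not show that the arms are alike.

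At week 12 the differences between arms, though none was called, lay mostly on one side. The value was higher in the anti-miR-33 arm for 35 of 39 members, 15 of 18 in complement (median 0.10) and 20 of 21 in coagulation (median 0.10). Hepatocyte markers that belong to neither cascade moved the same way, 18 of 18 with a median of 0.14. The 3 complement members of smallest unadjusted p were C8G, C3 and CFB, and the 3 coagulation members FGA, FGB and PLG. C8G ran from 11.12 to 11.64 (median 11.47) in the control arm and from 11.58 to 11.83 (median 11.66) in the anti-miR-33 arm, a difference of 0.27 ± 0.117 (adjusted p = 0.998). C3 ran from 13.67 to 14.63 (median 14.52) and from 14.55 to 14.65 (median 14.59), a difference of 0.198 ± 0.102 (adjusted p = 0.998), and FGA from 10.09 to 10.65 (median 10.35) and from 10.42 to 10.94 (median 10.53), a difference of 0.215 ± 0.097 (adjusted p = 0.998). For FGB, PLG and CFB the differences were 0.165 ± 0.087, 0.165 ± 0.107 and 0.09 ± 0.079. Without the week 12 array of control animal 5, 28 of 39 members and 15 of 18 hepatocyte markers stayed above 0, the median of the members went from 0.10 to 0.05, and the difference of C3 went from 0.198 to 0.055 ± 0.071.

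**Figure D5:**
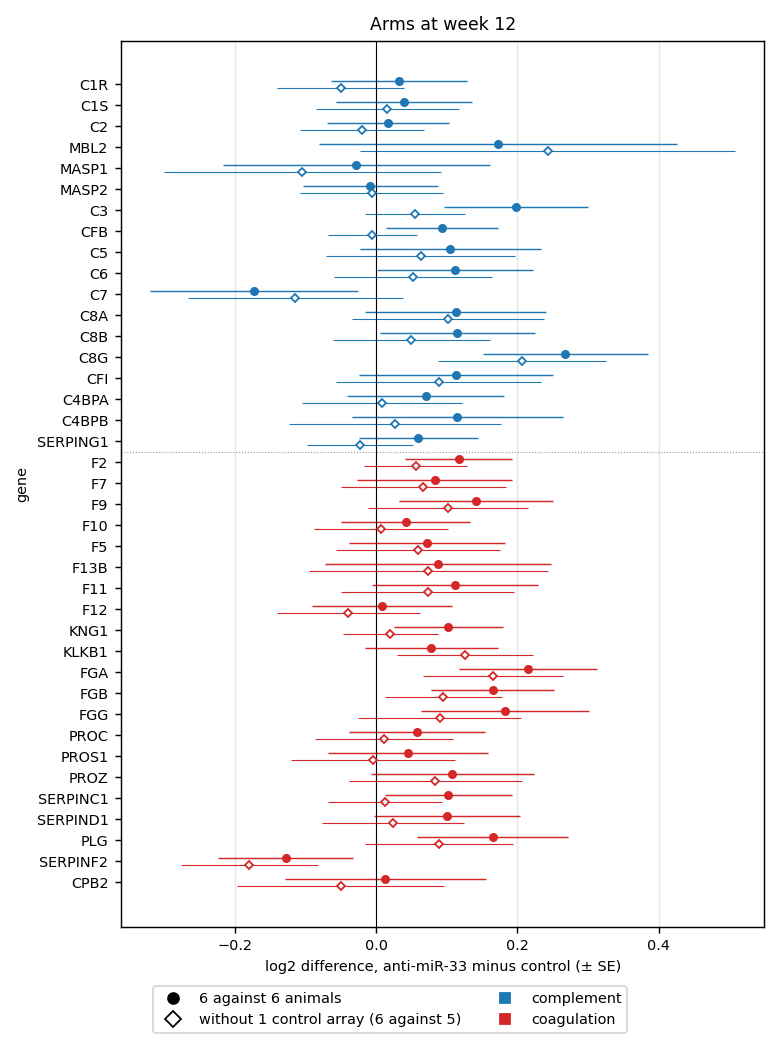
Log2 difference between arms at week 12, anti-miR-33 minus control, for each of the 39 tested members with its standard error: circles with all animals (6 against 6), diamonds without the week 12 array of control animal 5 (6 against 5). Most circles lie to the right of 0 and most diamonds lie nearer to it.

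At the earlier times the members were spread to both sides. At week -5, before any injection, 15 of 39 were higher in the animals later given anti-miR-33, with C8G (0.145 ± 0.117), C1S (-0.11 ± 0.096), C7 (-0.14 ± 0.147), F9 (0.165 ± 0.109), F5 (-0.165 ± 0.110) and F10 (0.12 ± 0.091) of smallest p (all adjusted p = 0.999). At week 4, 17 of 39 were higher, with MASP1 (-0.265 ± 0.189), C8G (0.14 ± 0.117), MBL2 (-0.30 ± 0.253), F11 (-0.15 ± 0.117), SERPINF2 (0.098 ± 0.096) and PROZ (0.09 ± 0.115) of smallest p (all adjusted p = 0.998). C8G was therefore already higher in the anti-miR-33 animals at week -5, by about the size of its error. Of the differences in change from week 4 to week 12, SERPINF2 (-0.23 ± 0.125), F11 (0.26 ± 0.153), FGA (0.20 ± 0.126), C3 (0.22 ± 0.133), MBL2 (0.48 ± 0.330) and CFB (0.13 ± 0.103) had the smallest p (adjusted p = 0.999). Of those from week -5 to week 12 they were PLG (0.25 ± 0.140), F11 (0.26 ± 0.153), F2 (0.165 ± 0.099), C3 (0.21 ± 0.133), C6 (0.20 ± 0.144) and C5 (0.215 ± 0.167), and of those from week -5 to week 4 F5 (0.16 ± 0.143), F2 (0.11 ± 0.099), SERPINF2 (0.125 ± 0.125), MASP1 (-0.23 ± 0.246), SERPING1 (-0.08 ± 0.109) and MBL2 (-0.18 ± 0.330), with adjusted p of 0.999 and 1.

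Individual animals kept their own levels of several factors across the 3 biopsies. The correlation between arrays of an animal, within groups, had a median of 0.40 over the complement members and 0.35 over the coagulation members, against 0.14 over all tested genes, and 14 of 18 and 18 of 21 members lay above the latter. It was highest for MBL2 (0.775), CPB2 (0.61), C8G (0.596) and SERPIND1 (0.576). The mean of MBL2 over an animal's 3 biopsies ran from 3.96 in control animal 4 to 5.62 in control animal 6, a 3.17-fold range, with a median of 4.95. For CPB2 the range was from 7.38 to 8.21, for C8G from 11.04 to 11.87 and for SERPIND1 from 12.14 to 12.70. Control animal 5 had the lowest mean of all animals for 22 of the 39 members (9 complement and 13 coagulation), CPB2 and SERPIND1 included, and its array at week 12 is the one that stands apart. CFB and C1R, at -0.04 and -0.01, showed no such correlation. The 3′ minus 5′ value differed between animals too. It was 3.02, 2.445 and 2.045 in control animal 5 at weeks -5, 4 and 12. In anti-miR-33 animal 1, highest for CPB2, C8G and SERPIND1, it was 1.785, 1.355 and 1.805. The part of the 3′ minus 5′ value in the levels of the animals was not tested.

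Further genes of both pathways, many of them made outside hepatocytes, were read beside the members. Of 23 other complement genes tested, 2 rose and 6 fell from week -5 to week 4, and 4 rose and 5 fell by week 12. Among all tested genes, 15.1% rose and 20.6% fell to week 4, and 10.9% and 16.5% by week 12. The largest falls by week 4 were those of the lectin pathway recognition molecules FCN2 (-1.33 ± 0.119, adjusted p = 2.55e-10), COLEC10 (-1.05 ± 0.095, adjusted p = 3.03e-10) and COLEC11 (-0.65 ± 0.084, adjusted p = 2.89e-07). MBL2, a dim probe set, was 0.41 higher at week 4 but did not pass (adjusted p = 0.0516). Its rise to week 12 was lost with the 3′ minus 5′ covariate (0.24, adjusted p = 0.609). FCN2 also stands in the list of endothelial markers. CFHR2, a relative of complement factor H, rose by 0.30 ± 0.105 (adjusted p = 0.0226). Of 24 other coagulation genes, 4 rose and 7 fell to week 4, and 4 rose and 4 fell by week 12. The shares of all tested genes given above hold for this list too. Values of both lists are from the fit without the 3′ minus 5′ covariate. F8 (-0.81 ± 0.085, adjusted p = 6.25e-09), TFPI, the inhibitor of the tissue factor route (-0.73 ± 0.088, adjusted p = 8.86e-08), and VWF, the carrier of factor VIII (-0.69 ± 0.124, adjusted p = 4.94e-05), fell, while SERPINA10, the protein Z dependent inhibitor, rose (0.59 ± 0.105, adjusted p = 3.98e-05). F5, a close relative of F8 in structure, rose to week 4 by its highest probe set (0.36), while its second went from 9.55 to 8.84. Whether F5 and F8 moved apart therefore depends on the probe set of F5. The cargo receptor LMAN1, which carries factors V and VIII out of the endoplasmic reticulum, rose by 0.50 ± 0.075 (adjusted p = 4.42e-06) by week 12. Endothelial markers fell alongside, and their part in the falls of F8, VWF, TFPI and FCN2 was not tested.

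Acute phase and regulatory genes formed another list. No gene of the 12 tested in the acute phase list rose by week 4 and 1 fell (A2M), while by week 12 5 rose and 1 fell: LBP (0.77 ± 0.202, adjusted p = 0.00354), CRP (0.68 ± 0.177, adjusted p = 0.00347), CP (0.42 ± 0.075, adjusted p = 4.96e-05), FGL1 (0.38 ± 0.119, adjusted p = 0.0142) and HP (0.23 ± 0.070, adjusted p = 0.0137) rose, and ITIH4 fell by 0.23 ± 0.051 (adjusted p = 0.000808). A2M and FGL1 also stand in the list of other coagulation genes. Over all tested genes, 15.1% rose and 20.6% fell by week 4, and 10.9% and 16.5% by week 12. Values of these lists are from the fit without the 3′ minus 5′ covariate. Among C3, CFB, FGA, FGB and FGG, members that are acute phase proteins too, FGG rose by week 12 and the others did not pass by their highest probe sets. The remaining members, of which C4BPA and MBL2 were among those that rose by week 12, were not sorted in this way. The call of FGG was lost with the 3′ minus 5′ covariate (0.04, adjusted p = 0.865), as were those of C4BPA and MBL2. Of 7 interleukin 6 signalling genes tested, 2 rose and 3 fell to week 4. From week 4 to week 12, 3 rose and 0 fell, beside 13.7% and 13.9% of all tested genes. The largest change among them was that of IL6ST, the shared receptor chain of the interleukin 6 family. IL6ST fell by 1.62 ± 0.139 (adjusted p = 1.04e-10) to week 4 and rose by 0.99 ± 0.139 (adjusted p = 6.25e-06) after it. Of the 9 hepatocyte transcription factors tested, ONECUT1 rose by 0.77 ± 0.119 (adjusted p = 5.16e-06) and CREB3L3 fell by 0.42 ± 0.157 (adjusted p = 0.0352) to week 4, and NR0B2 rose by 1.04 ± 0.148 (adjusted p = 2.09e-06) from week -5 to week 12. None of the 18 hepatocyte markers was called from week -5 to week 4, with a median change of -0.04. From week 4 to week 12, 5 of these markers rose and 1 fell, beside 13.7% and 13.9% of all tested genes. From week -5 to week 12, 1 rose and 1 fell.

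A few calls hung on single animals. Without control animal 1, C5 to week 4 (0.22, limma adjusted p = 0.0579) and F11 from week 4 to week 12 (-0.185, adjusted p = 0.079) were lost, and without anti-miR-33 animal 4 FGG to week 4 (0.16, adjusted p = 0.0809). C4BPA to week 4 was lost without any 1 of 5 animals (control 1, 2 or 3, anti-miR-33 4 or 5), F13B to week 4 without any 1 of 3 (control 1, anti-miR-33 4 or 5), F5 from week 4 to week 12 without any 1 of 5 (control 3 or 4, anti-miR-33 2, 3 or 6), PLG from week -5 to week 12 without any 1 of 6 (control 1, 2 or 3, anti-miR-33 4, 5 or 6), and SERPINF2 without control 4 or anti-miR-33 6. Of the 46 calls, the others were made whichever animal was left out. Without the week 4 array of control animal 1 alone, C4BPA and F13B to week 4 were lost (adjusted p = 0.0669 and 0.0576).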

How the data were processed

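The authors deposited 1 table of RMA log2 values for 54675 probe sets, per the submitters' processing notes; for the RMA version and for joint normalization of the 36 arrays, nothing was given in the sources used here. Values ran from 2.41 to 15.07, and array medians from 4.42 to 4.51. Symbols came from the platform annotation, which can be old: 41097 probe sets had 1 gene, 1801 several and 11777 none listed. For each of 19775 genes the highest probe set was kept, and those with a mean under 4.459, the median of all probe sets, were left out. The 6 group means were fitted in limma 3.58.1 (R 4.3.3) with the animal, known from its identifier, as a random block (correlation 0.151). P-values are two-sided, adjusted by Benjamini-Hochberg over 13634 genes and called at 0.05. Named members were the called ones of largest change per class, interval and direction, a fixed set (such as C3, F2 and PLG), and for arms the 3 of smallest p per class; other genes were the called ones of largest change per list of complement, coagulation, hepatocyte factors, interleukin 6 signalling, acute phase and cell types. The fit was tested on simulated data. Members, lists and tests were chosen with earlier results of these data known. Animals are numbered within each arm, and the number of arrays limits the precision.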

Additional observations from a re-analysis of the deposited data

Results flagged for a closer look

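Within each group of 6 animals, members were searched for a sample far from the others (a gap to the nearest animal that passes Dixon's 95% critical value for its share of the group's range). Of 252 such groups examined, for the members and the means of both classes, 23 had one, where chance gives about 1 in 20. The same arrays recur across members, and 1 array gave 9 of the 23. The groups are therefore not independent, and no test was made of this count.

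The week 12 array of control animal 5 gave 9 of them, each as the lowest of its group: C3 (13.67, next 14.47), CFB (13.09, next 13.61), C8B (11.83, next 12.23), F2 (11.99, next 12.34), KNG1 (12.11, next 12.59), SERPINC1 (13.20, next 13.76), SERPIND1 (12.09, next 12.61), PLG (11.25, next 11.69) and the mean of the coagulation members (9.46, next 9.76). In the same array the mean of the hepatocyte markers was 11.70. Its 3′ minus 5′ value, 2.04, was the highest at week 12, though within the range at the other times. The same animal was lowest at week -5 for CFI (8.89, next 9.58), C4BPB (9.70, next 10.16) and SERPINC1 (13.38, next 13.63), and at week 4 for F7 (5.23, next 5.76) and KLKB1 (6.06, next 6.30).

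At week -5, anti-miR-33 animal 4 was lowest for F9 (7.86, next 8.17), FGA (10.10, next 10.39) and FGG (12.77, next 13.30), animal 6 of that arm lowest for C7 (6.88, next 7.23) and animal 1 highest for C8G (11.71, next 11.49). Among the week -5 arrays, the 3′ minus 5′ value was highest in anti-miR-33 animal 4 (3.295) and lowest in anti-miR-33 animal 1 (1.785). Control animal 4 was lowest for F10 at week -5 (10.19, next 10.42) and for MASP2 at week 4 (10.78, next 11.23). At week 4, anti-miR-33 animal 5 was lowest for C3 (14.10, next 14.58) and animal 1 highest for F10 (10.80, next 10.59). No member passed the test of a difference between the arms in its change over time.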

How the results depend on the processing

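Counts of called members kept within 1.5 times their value under most alternatives. With the 3′ minus 5′ value as a covariate, complement members higher at week 4 went from 7 to 3 and at week 12 from 7 to 0, those lower at week 12 from 2 to 1, coagulation members higher at week 4 from 5 to 1 and at week 12 from 6 to 1, lower at week 4 from 1 to 6 and at week 12 from 2 to 1; the cause was not tested. In that fit the changes to week 4 of C4BPA (-0.029), C5 (-0.007), CFI (-0.014), F13B (-0.128), CPB2 (-0.340) and C8B (-0.199), and to week 12 of MASP1 (-0.024), F13B (-0.008), CPB2 (-0.073), PLG (-0.134) and F11 (-0.275), turned negative. With the mean of all probe sets per gene, F5 (-0.132), CFB (0.154), PLG (0.106) and SERPINC1 (0.248) to week 4 and KNG1 (0.149) to week 12 changed direction, 2 coagulation members fell to week 4, and F5 (0.041) and MASP1 (0.028) to week 12 and PLG after week 4 (0.020) no longer passed; the disagreeing probe sets are in the report. Without the week 4 array of control animal 1, 9 coagulation members rose from week 4 to week 12, and without the week 12 array of control animal 5, 1 complement member (CFB) did. Leaving out each animal in turn gave 3 to 5 coagulation members higher at week 4 (3 without anti-miR-33 animal 4) and 0 to 1 complement members higher from week 4 to week 12 (1 without control animal 5). With the animal as a fixed block, all 46 paired changes called were called again and 5 more passed (C6, MASP1 and MBL2 to week 4, SERPINC1 and SERPIND1 after it), MBL2 with 0.407 (limma adjusted p = 0.00109); without the block 3 were lost (C4BPA to week 4, F5 from week 4, PLG from week -5). Arms gave 0 called members under every alternative run. Counting VTN with complement was not run, since VTN had no probe set of its own. Dim probe sets such as C9 and MBL2 lie near the filter, where the signal limits what can be read.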
